A study of Mus musculus with 6 samples.

Results

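The control arm of a study of chromatin accessibility in mouse neural progenitors was described, the 3 mScarlet samples of 6 in all. They were chosen by their label alone, and their counts over all 52223 deposited intervals were used. The other 3 samples carried an Nr6a1 virus and enter no value here. ATAC-seq uses the Tn5 transposase to cut open chromatin and attach sequencing adapters, so that many fragments over an interval mean that its DNA was reachable. Per the labels' protocols, mouse embryonic stem cells with the genotype label Control were grown in N2B27 medium with bFGF. They received 5 µM CHIR99021, an inhibitor of GSK3β that activates Wnt signalling, on day 2. Medium with 100 nM retinoic acid and 10 nM Smoothened agonist (SAG, which switches on Sonic hedgehog signalling) followed on day 3. From day 5 the medium held 10 nM SAG without retinoic acid. The mScarlet samples were transduced on day 5 with a lentivirus for the red fluorescent protein mScarlet3. Fluorescent cells were sorted on day 9, and 50000 of them went into each library. The controls therefore carried a virus and had passed a sort. For the stem cell line and the promoter that drives the transgene, the sources used here give no name. Nothing in the labels names separate cultures for the 3 samples, so the spread between them may be technical.

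In the developing spinal cord, retinoic acid, FGF and Wnt signals set position from head to tail, read out as nested expression of the Hox genes, whose order along each cluster matches their order along the body. Sonic hedgehog sets ventral progenitor domains, while BMP and Wnt signals pattern the dorsal side. Progenitors also pass through early, middle and late temporal programmes, and leave the cycle through Notch ligands and proneural factors to become neurons. Many promoters of developmental genes lie in CpG islands and are open in many cell types, whereas distal elements are often open in few.

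Accessibility is given as counts per 1000000 fragments in intervals (CPM), divided by interval length in kb, and is called the density below. An interval within 1 kb of a gene start is called a promoter interval and any other a distal one. Starts came from RefSeq. For genes with no listed start both ends of the gene served in its place, because the table gives no strand for them. Distal intervals were assigned to the gene with the nearest start, which need not be the gene they act on, and no exon or intron classes were used. An interval is called strong when its density was among the highest 10.0% of its own class. The lowest strong promoter interval had 56.45 CPM per kb and the next one below it 56.44. For distal intervals these neighbours were 18.309 and 18.308 CPM per kb. Counts for a list of genes take distal intervals within 100 kb, while the 10.0% is over distal intervals at any distance. The 90th percentile of density was 27.3 CPM per kb at 1 to 10 kb, 16.4 at 10 to 100 kb and 15.5 at 100 to 500 kb. Intervals at 1 to 10 kb are thus strong more often than 10.0% near any gene, and no share matched for distance is given. Means are given ± SD over the 3 libraries.

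The sequences shown here are starts of 4 of the 5 progenitor marker genes, with Pax6 not shown, and of Hox and neuronal genes of higher and lower density. Hoxa13 was not among the lowest Hox promoters: its 17.2 CPM per kb lay above the Hox10 to Hox13 median of 12.96. Each is the RefSeq stretch of 300 bases, 250 before the start and 50 after it (GRCm38.p6, the coordinates of mm10), 5′ to 3′ on the strand of the gene. Each CpG dinucleotide is in capitals. Nes lies at chr3:87970843-87971142 (+), Sox2 at chr3:34649745-34650044 (+), Nkx6-1 at chr5:101664662-101664961 (-) and Olig2 at chr16:91225300-91225599 (+). Hoxa2 lies at chr6:52164782-52165081 (-), Hoxa13 at chr6:52260831-52261130 (-), Tubb3 at chr8:123411303-123411602 (+), Scn2a at chr2:65620519-65620818 (+) and Dcx at chrX:143933075-143933374 (-).
Nes: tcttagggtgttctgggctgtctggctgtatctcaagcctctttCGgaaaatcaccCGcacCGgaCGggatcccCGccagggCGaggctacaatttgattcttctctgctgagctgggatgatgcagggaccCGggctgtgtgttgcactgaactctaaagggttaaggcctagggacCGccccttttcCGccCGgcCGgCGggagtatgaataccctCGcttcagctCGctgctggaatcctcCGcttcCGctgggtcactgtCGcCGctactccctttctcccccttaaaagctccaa
Sox2: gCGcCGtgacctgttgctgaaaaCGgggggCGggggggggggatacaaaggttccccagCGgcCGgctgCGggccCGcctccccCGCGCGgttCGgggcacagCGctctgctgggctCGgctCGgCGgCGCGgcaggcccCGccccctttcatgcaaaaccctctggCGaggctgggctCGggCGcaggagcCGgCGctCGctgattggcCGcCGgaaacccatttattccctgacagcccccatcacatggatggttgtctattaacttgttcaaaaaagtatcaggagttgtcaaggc
Nkx6-1: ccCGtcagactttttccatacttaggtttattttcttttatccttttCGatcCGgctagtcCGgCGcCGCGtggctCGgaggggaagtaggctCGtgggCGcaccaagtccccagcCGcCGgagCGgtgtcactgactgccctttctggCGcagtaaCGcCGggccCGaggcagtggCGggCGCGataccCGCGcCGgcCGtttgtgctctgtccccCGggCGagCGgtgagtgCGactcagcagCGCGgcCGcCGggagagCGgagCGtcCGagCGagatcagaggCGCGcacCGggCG
Olig2: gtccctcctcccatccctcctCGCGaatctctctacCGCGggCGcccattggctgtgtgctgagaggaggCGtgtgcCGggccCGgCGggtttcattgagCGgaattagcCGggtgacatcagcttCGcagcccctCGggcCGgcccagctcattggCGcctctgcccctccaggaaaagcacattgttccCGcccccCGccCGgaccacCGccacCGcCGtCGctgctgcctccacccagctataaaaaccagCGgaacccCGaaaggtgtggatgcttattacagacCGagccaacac
Hoxa2: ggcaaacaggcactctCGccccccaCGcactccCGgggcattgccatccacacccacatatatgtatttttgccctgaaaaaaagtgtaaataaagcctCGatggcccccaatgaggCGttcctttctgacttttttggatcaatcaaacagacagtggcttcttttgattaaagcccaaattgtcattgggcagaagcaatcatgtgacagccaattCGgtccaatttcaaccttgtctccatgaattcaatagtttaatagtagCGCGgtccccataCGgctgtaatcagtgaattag
Hoxa13: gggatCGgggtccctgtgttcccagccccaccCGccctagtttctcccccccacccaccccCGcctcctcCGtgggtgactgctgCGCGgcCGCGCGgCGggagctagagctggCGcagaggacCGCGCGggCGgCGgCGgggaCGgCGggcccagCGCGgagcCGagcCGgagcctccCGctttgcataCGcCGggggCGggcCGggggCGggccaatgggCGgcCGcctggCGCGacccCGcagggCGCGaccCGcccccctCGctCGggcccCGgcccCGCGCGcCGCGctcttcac
Tubb3: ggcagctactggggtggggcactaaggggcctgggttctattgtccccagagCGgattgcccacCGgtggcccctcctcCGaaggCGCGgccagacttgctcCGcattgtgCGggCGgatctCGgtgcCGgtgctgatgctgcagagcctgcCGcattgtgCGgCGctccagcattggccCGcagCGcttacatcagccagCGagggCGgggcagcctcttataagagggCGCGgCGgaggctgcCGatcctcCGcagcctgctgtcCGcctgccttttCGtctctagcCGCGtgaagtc
Scn2a: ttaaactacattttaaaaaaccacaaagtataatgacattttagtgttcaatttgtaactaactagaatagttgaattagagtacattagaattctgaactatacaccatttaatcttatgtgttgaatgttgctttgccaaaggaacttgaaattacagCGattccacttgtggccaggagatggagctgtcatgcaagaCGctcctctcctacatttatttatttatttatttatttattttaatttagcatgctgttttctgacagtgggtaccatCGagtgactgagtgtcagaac
Dcx: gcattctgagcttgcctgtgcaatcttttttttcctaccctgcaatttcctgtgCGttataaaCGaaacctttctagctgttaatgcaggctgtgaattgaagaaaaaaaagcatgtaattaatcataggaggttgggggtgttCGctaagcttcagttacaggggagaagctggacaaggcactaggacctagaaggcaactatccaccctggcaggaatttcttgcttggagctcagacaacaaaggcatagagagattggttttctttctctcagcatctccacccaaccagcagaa
The 4 marker starts held 18 (Nes), 27 (Sox2), 40 (Nkx6-1) and 25 (Olig2) CpG dinucleotides. The Hoxa2 start held 9 and that of Hoxa13 held 45. The neuronal starts held 26 in Tubb3, 3 in Scn2a and 3 in Dcx. All 9 starts lay inside an accessible interval, with densities from 2.10 CPM per kb at this Scn2a start to 52.8 at Hoxa2.

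The libraries held 7347754, 6857763 and 8030029 fragments in intervals. Each pair of libraries differed by slightly more than counting noise over 51499 intervals (chi-square per degree of freedom 1.05 for libraries 1 and 2, 1.05 for 1 and 3, and 1.10 for 2 and 3; highest p 2.85e-14), and each was kept as a replicate. The median coefficient of variation over the 3 libraries was 5.18% for promoter intervals, which held a median of 313 fragments. It was 12.8% for distal intervals, which held 37.3. A difference between weak distal intervals is therefore less precisely measured than the same fold between promoters. The set of intervals is a consensus over both virus groups, and how it was called is not given in the sources used here.

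Promoter intervals were 5.11-fold denser than distal ones by their medians, 5.14-fold, 5.04-fold and 5.02-fold in the 3 libraries. The 13877 promoter intervals were 26.6% of all intervals and took 64.4%, 63.9% and 63.9% of the fragments. Their median density was 30.9 CPM per kb (30.9, 30.8 and 30.6 by library). The 38346 distal intervals had a median of 6.05 CPM per kb (6.01, 6.12 and 6.10). No library overlapped the other class in its median. Within the distal intervals the fall with distance was small. The median was 7.37 CPM per kb at 1 to 10 kb from a start (7815 intervals), 5.86 at 10 to 100 kb (21754), 5.70 at 100 to 500 kb (7901) and 5.95 beyond 500 kb (876). Some distal intervals were as dense as the densest promoters, since 189 of 38346 reached the limit for a strong promoter. Promoter intervals assigned to a listed start had a median of 32.2 CPM per kb (10883), and those assigned to a gene end 25.6 (2994).

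**Figure D1:**
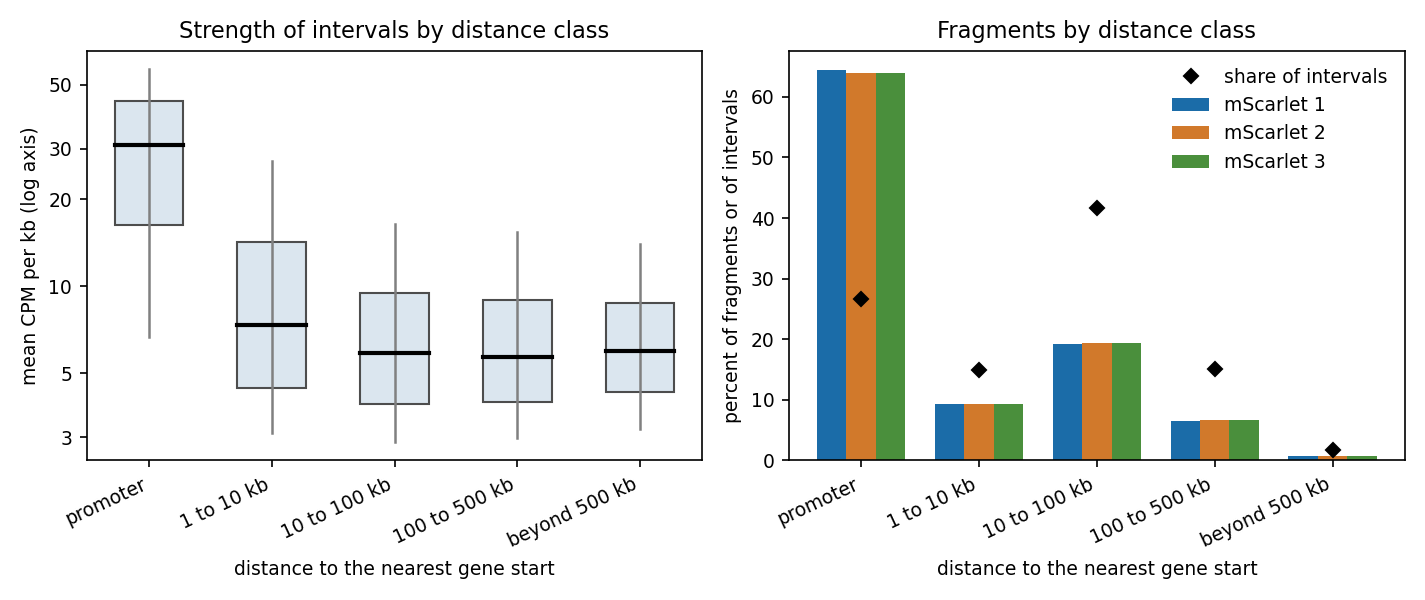
Density and fragment share by distance to the nearest gene start in the 3 mScarlet libraries. Left: mean CPM per kb on a log axis, with the median as a thick line, the quartiles as the box and the 10th to 90th percentile as the thin line. Right: percent of fragments per library as bars and percent of intervals as diamonds. Promoter intervals stand at a median of 30.9 and each distal class between 5.70 and 7.37, while the promoter class takes 64.1% of fragments from 26.6% of intervals.

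Density and total CPM did not order promoters alike. The median promoter interval was 1352 bp. Those of the neural progenitor list had a median of 2436.5 bp and those of the early temporal list 2751 bp, while those of the motor neuron list had 1269 bp. Density was highest in promoter intervals of 1 to 2 kb, at 33.1 CPM per kb (9645 intervals). It was 20.3 in those up to 1 kb, 27.95 at 2 to 3 kb and 26.0 above 3 kb. Total CPM rose with length instead, from a median of 15.8 up to 1 kb to 90.7 above 3 kb. Ranked by total CPM per interval, 10 of 20 neural progenitor promoter intervals were among the highest 10.0%, where 2 were by density. The early temporal list went from 1 to 6 of 12 in the same way.

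Chromosome 8 stood apart from the other autosomes at promoters. Its 762 promoter intervals had a median of 41.6 CPM per kb (42.0, 41.8 and 41.7 by library), and 28.1% of them were strong. The other 18 autosomes had medians from 27.4 to 35.1, with 4.41% to 17.1% strong, the highest share on chromosome 6. The X chromosome had a median of 16.1 and 0% strong. Of the 20 strongest promoter intervals, 15 lay on chromosome 8. The 5 highest were at Zfpm1 (152 ± 6.04 CPM per kb, chr8:122281044-122282244), a cofactor of GATA factors, Ing1 (140 ± 3.01), a chromatin reader, Slc25a42 (118 ± 6.34), a mitochondrial carrier, Ocel1 (117 ± 2.27) and Rfx1 (116 ± 3.40), a transcription factor, all on chromosome 8. The distal median of chromosome 8 was 6.1, and those of the other autosomes lay between 5.70 and 6.27. The X chromosome had 6.01, so this median did not separate chromosomes whose promoters differed. Of the distal intervals of chromosome 8, 12.2% were strong, the highest share of any autosome, with chromosome 11 next at 12.1%. Why chromosome 8 was high was not tested. Where a value is scaled to its chromosome below, it is divided by the promoter median of that chromosome over that of all promoter intervals. This factor was 1.35 for chromosome 8 and 0.521 for the X chromosome. It comes from promoters alone and the distal medians did not follow it, so for distal intervals the scaling is not a correction.

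**Figure D2:**
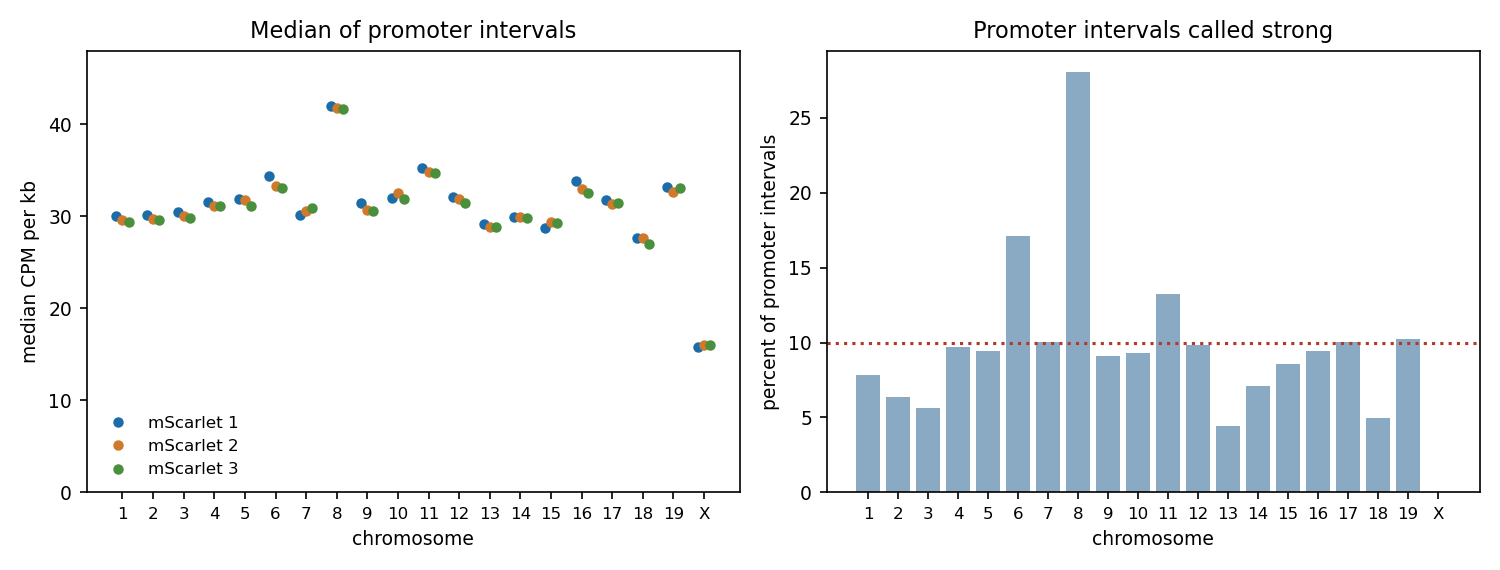
Promoter intervals by chromosome. Left: median CPM per kb in each mScarlet library as points; right: percent of promoter intervals called strong as bars, with the 10.0% of all promoter intervals as a dotted line. Chromosome 8 stands at 41.6 with 28.1% strong, and the X chromosome at 16.1 with 0%.

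The highest distal densities of all were not at genes of the lists. They lay nearest to Col19a1 (452 ± 37.2 CPM per kb, chr1:24612791-24613613, 25.4 kb away), Limd1 (352 ± 25.0, chr9:123461797-123462184) and Pex2 (291 ± 15.9, chr3:5860340-5860623, 282 kb away). Next came Esp38 (257 ± 15.0, chr17:39846690-39847420) and 4930467E23Rik (256 ± 9.22, chr8:19784349-19785302). All of these intervals were 284 to 954 bp long. Whether reads with more than 1 possible position were kept is not given in the sources used here, so these values cannot be read apart from it.

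All 5 progenitor markers had a promoter interval, and in Sox2, Nes, Olig2 and Pax6, but not Nkx6-1, the densest interval was distal. Sox2, a transcription factor of neural progenitors, had 34.4, 36.6 and 31.8 CPM per kb at its promoter interval (chr3:34647917-34651218). Nes, the intermediate filament nestin, had 33.4, 36.4 and 36.4 at chr3:87970166-87972656. Nkx6-1, a homeodomain factor of ventral progenitors, had 27.4, 32.5 and 27.4 at chr5:101663177-101665923. These 3 promoters lay around the median of all promoter intervals. The Sox2 libraries overlapped those of both others, while every Nes library was above every Nkx6-1 library. Olig2, the bHLH factor of motor neuron progenitors, was lower and without overlap, at 21.3, 20.7 and 22.3 (chr16:91224854-91227857). Pax6, the homeodomain factor of intermediate and dorsal progenitors, had 20.5, 18.8 and 17.3 at one promoter interval and 9.82, 9.92 and 8.51 at the other. None of the 6 marker promoter intervals was strong by density, against 10.0% of all promoter intervals. By total CPM per interval 2 of the 6, at Sox2 and Nes, were among the highest 10.0%. The marker promoter intervals were long, with a median of 2821.5 bp against 1352 bp over all promoter intervals. In bulk chromatin, fewer open cells and less access per cell cannot be told apart.

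Of the 37 distal intervals of the markers within 100 kb, 13 were strong (35.1%, against 10.0% of distal intervals at any distance). Nes had a distal interval inside the gene, 2.69 kb from its start (chr3:87973781-87974814), with 55.4, 53.2 and 47.2 CPM per kb, above its promoter in every library. Sox2 had 46.5, 52.9 and 40.8 at 3.74 kb (chr3:34653740-34654166). Olig2 had 44.5, 39.4 and 46.1 at 31.8 kb (chr16:91192187-91193797), above its promoter in every library. At Pax6, 5 distal intervals were strong, led by 38.7, 40.7 and 40.7 at 55.9 kb (chr2:105611133-105612951) and 40.2, 39.2 and 37.9 at 4.97 kb (chr2:105673866-105676701). Nkx6-1 was the exception, with 7 distal intervals and 0 strong.

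Among the wider neural progenitor genes, 2 of 20 promoter intervals were strong and 34 of 97 distal ones (35.1%). Their promoter median was 36.8 CPM per kb. Hes5, a Notch target that keeps progenitors dividing, led with 69.5, 69.9 and 67.8 CPM per kb (chr4:154960513-154961701). Sox1, a SoxB factor of neural progenitors on chromosome 8, followed with 59.1, 56.9 and 59.7, and fell out of the strong class once each value was scaled to its chromosome. Hes6, Notch1, Cdh2, Rfx4 and Hes1 lay between 43.2 and 51.3. The lowest lay 93 bp from an end of Msi1, an RNA-binding protein of progenitors, at 5.41, 6.15 and 5.70. Msi1 has no listed start, so this end need not be its start. Msi1 held 7 strong distal intervals of 9, led by 64.7, 62.6 and 61.9 CPM per kb at 18.3 kb (chr5:115436020-115437378) and 60.7, 58.4 and 57.9 at 38.9 kb (chr5:115397929-115398941), the latter inside the gene. The Msi1 distal intervals, and Hes6 to Hes1 above, were chosen for mention after their values were seen.

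Fragments were also summed over all intervals within 100 kb, for genes of the lists only, so the kind of gene that leads was set by the lists. Sox1, on chromosome 8 and not scaled for it, had 521 ± 2.33 CPM in 11 intervals. Pax2, a factor of dorsal inhibitory interneurons, had 433 ± 8.80 in 21. Pax6 had 405 ± 13.5 in 10, Pou3f3 374 ± 1.57 in 8, Sox2 366 ± 18.1 in 14 and Hes1 360 ± 5.92 in 11. These sums grow with the number and length of intervals. List genes with any interval had a median of 4 intervals (257 genes), against 2 over all genes (16062). In 92 of 199 list genes with both kinds (46.2%), the densest distal interval exceeded the densest promoter interval, against 1593 of 8268 genes in all (19.3%). These shares are by density and not on an equal footing. List genes had more intervals to take the densest from, and promoter intervals of several lists were longer than the median of all.

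**Figure D3:**
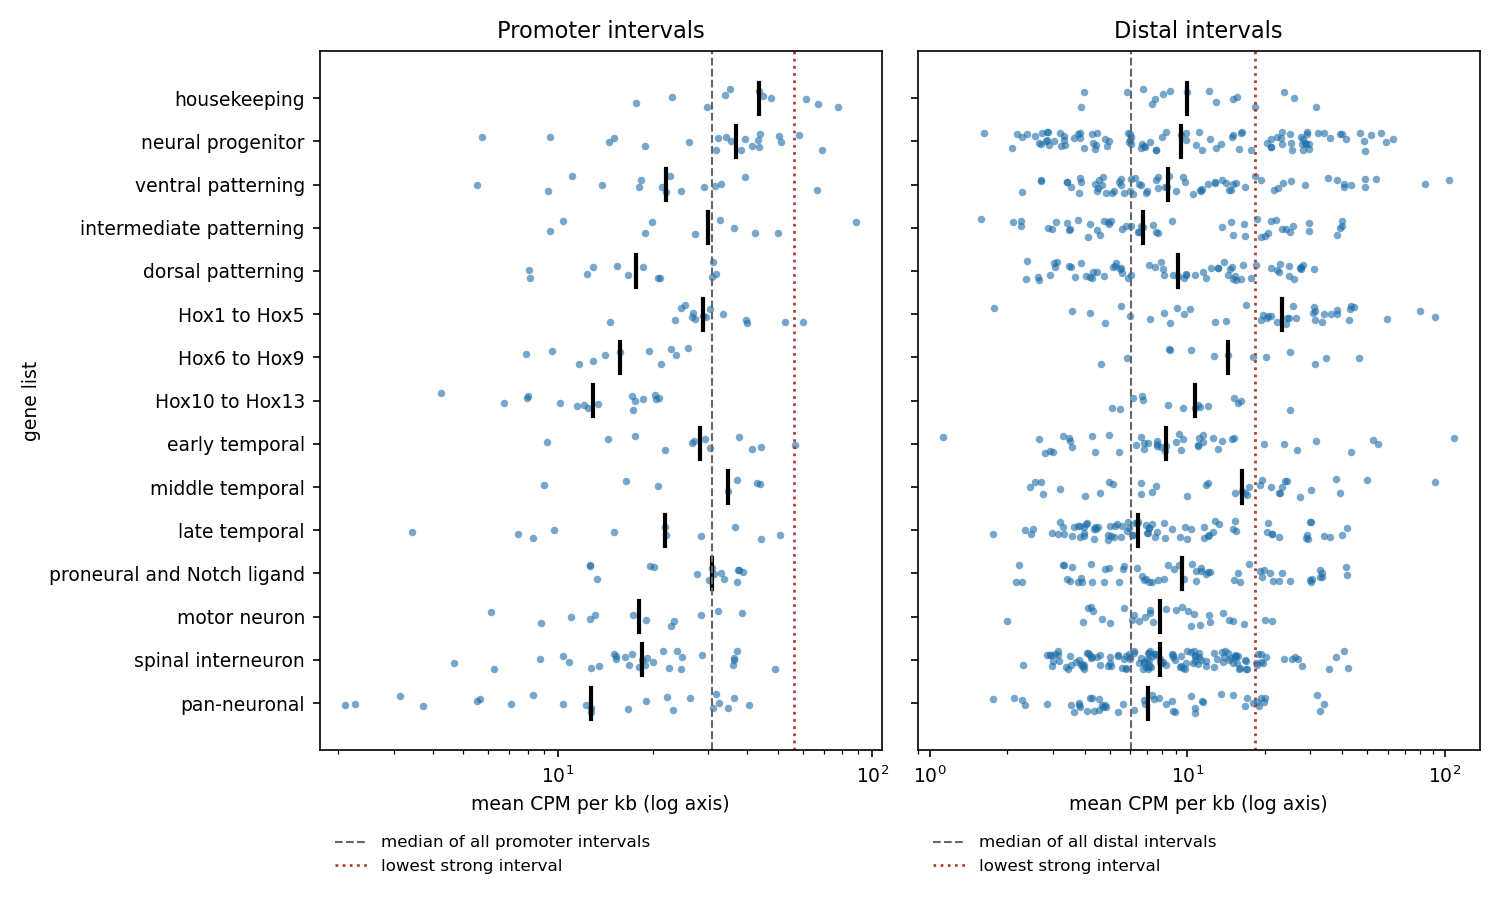
Density of promoter (left) and distal (right) intervals by gene list on log axes. Each point is an interval (mean of 3 libraries), the short bar the median of the list, the dashed line the median of all intervals of that class and the dotted line its lowest strong interval. Hox1 to Hox5 distal intervals have a median of 23.3, above the strong limit of 18.3, while pan-neuronal promoter intervals have a median of 12.7, below the 30.9 of all.

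Ventral patterning genes were led by targets of hedgehog signalling. Of 15 promoter intervals 1 was strong, and of 70 distal intervals 17 (24.3%). The promoter median was 22.1 CPM per kb and the distal median 8.42. Ptch1, the hedgehog receptor that is itself a target of the pathway, had 61.4, 67.9 and 70.8 CPM per kb at the promoter interval (chr13:63565953-63566845, 218 bp from the listed start). It had 107, 103 and 101 at a distal interval 1.97 kb away inside the gene (chr13:63567705-63568296). All 3 libraries were thus higher at the distal interval than at the promoter. Ptch1 runs on the minus strand, so the distal interval lies upstream of that listed start yet within the gene as annotated. Whether it lies at a further start that is not listed is not known. Hhip, a hedgehog-binding protein and target on chromosome 8, had 87.7, 70.0 and 94.0 at 3.48 kb (chr8:80054233-80054530), from 143 to 225 fragments a library. Gli1, the transcription factor induced by hedgehog, had 40.8, 39.6 and 37.7 at its promoter. The floor plate genes were lower, with 13.8 at Foxa2 and 11.1 at Shh itself. Nkx2-2, a factor of the most ventral interneuron progenitors, had 22.8 and Olig1 22.1; these 4 were chosen for mention after their values were seen.

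Intermediate patterning genes held the densest patterning promoter, as long as values were not scaled to the chromosome. Irx5, an Iroquois homeodomain factor, had 86.0, 88.1 and 92.2 CPM per kb (chr8:92355627-92358286), and remained strong when scaled to its chromosome. With that scaling it stood at percentile 96.7 of promoter intervals, below the Ptch1 promoter of the ventral list at 98.2. Its neighbour Irx3 had 50.4, 51.8 and 48.4 at chr8:91799933-91802543. Gli3, the hedgehog pathway factor that acts mainly as a repressor, had 42.9, 44.6 and 39.3, and ranked above Irx3 with that scaling. The lowest was the Pax6 promoter interval with 9.42 ± 0.78. In all 1 of 10 promoter intervals and 16 of 51 distal ones (31.4%) were strong. After scaling to the chromosome by its promoter factor, 13 of the 51 distal ones were. The 17 strong intervals of both classes became 11 with a distal limit of 50 kb. The 2 highest distal intervals were that of Pax6 at 55.9 kb and an interval 3.47 kb from the Irx3 start, with 40.6, 42.1 and 37.0 (chr8:91797496-91798185). The distal median was 6.75 CPM per kb, near the 6.05 of all distal intervals.

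Dorsal patterning promoters were all below the strong limit (0 of 12), with a median of 17.6 CPM per kb. The 3 highest lay close together: Zic1 at 31.7, 33.4 and 30.3, Msx2 at 29.3, 33.1 and 30.8, and Msx1 at 30.6, 31.0 and 31.3. Zic1 is a zinc finger factor of the dorsal neural tube, and Msx1 and Msx2 are BMP-induced homeodomain factors. Their libraries overlapped. The lowest was Wnt3a, a roof plate signal, at 9.03, 8.85 and 6.37, and Bmp4 had no promoter interval. Of 65 distal intervals 13 were strong (20.0%), with 31.4, 33.0 and 29.2 near Pax3 (chr1:78189248-78191152, 5.98 kb) and 22.5, 27.2 and 34.5 near Pax7 (chr4:139803928-139804302, 28.7 kb). Pax3 and Pax7 are paired-box factors of dorsal progenitors. The Pax7 value rested on 62 to 104 fragments a library.

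Genes of retinoid signalling had no strong promoter interval (0 of 13; median 15.4 CPM per kb) and 10 of 38 strong distal ones (26.3%). Rarb, the retinoic acid receptor gene that retinoic acid induces, was highest with 38.7, 36.5 and 40.4. Stra6, a retinol transporter, was lowest with 5.40, 4.63 and 3.21, from 13 to 20 fragments. Rara, another receptor, held a distal interval with 63.7, 58.5 and 63.6 CPM per kb at 3.64 kb (chr11:98968517-98970015), chosen for mention after its value was seen. Rarb and Stra6 did not overlap in any library.

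Along the Hox clusters, promoter density was graded by paralogue group. The median was 28.9 CPM per kb for Hox1 to Hox5 (15 intervals; 27.1, 29.7 and 28.6 by library), 15.8 for Hox6 to Hox9 (11; 17.3, 15.7 and 14.4) and 12.96 for Hox10 to Hox13 (16; 14.0, 12.6 and 12.7). The library medians of the 3 groups did not overlap, and the gap between Hox6 to Hox9 and Hox10 to Hox13 was small. The difference between the first and last group was 15.9 CPM per kb, and 10.1 with promoters limited to 500 bp from a start. It was 11.1 with only genes with a listed start. Of 39 Hox genes, 22 have a listed start. Gene ends stood in for the others, so some of these promoter intervals need not lie at a start. The order of first over last held in each cluster: 35.1 over 17.4 in HoxA, 24.5 over 8.03 in HoxB, 27.8 over 10.0 in HoxC and 26.1 over 12.5 in HoxD.

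**Figure D4:**
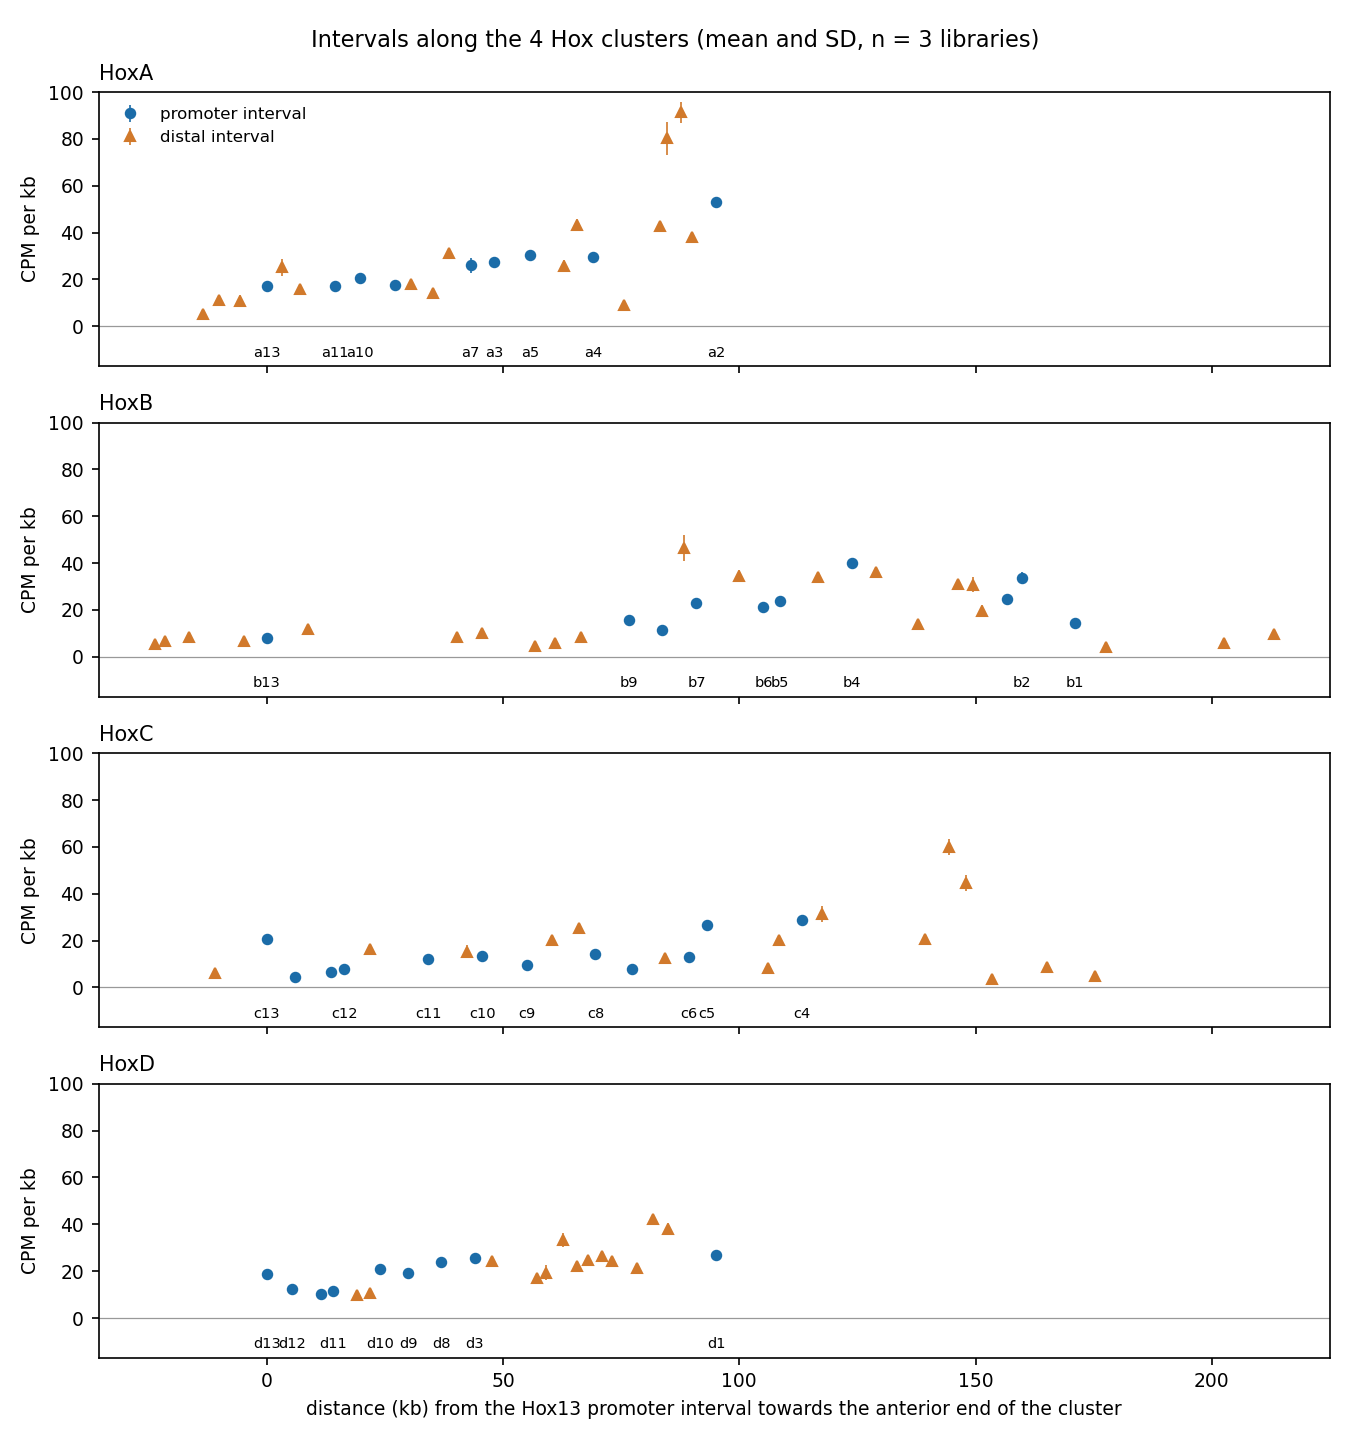
Density along the 4 Hox clusters, plotted by distance in kb from the Hox13 promoter interval towards the anterior end. Circles are promoter intervals, triangles distal intervals, and bars the SD over 3 libraries; labels give the gene of the promoter intervals, and not every interval is plotted. In HoxA the promoters shown pass from 17.2 at Hoxa13 to 52.8 at Hoxa2, and the highest distal points, 80.2 and 91.4, lie nearest to the Hoxa2 start.

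Hoxa2, a factor that patterns the hindbrain, was among the densest Hox promoters, just under the strong limit. Hoxa2 had 53.6, 51.5 and 53.4 (chr6:52163743-52166928), with the CpG-poor start shown above. Hoxb4 had 39.2, 39.5 and 40.9. The lowest of this group was Hoxb1 with 14.0, 14.7 and 15.1. Hoxb3 and Hoxd4 had no promoter interval assigned.

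Distal intervals near Hox1 to Hox5 were the densest of all lists named here. Of 42, 27 were strong (64.3%), and their median was 23.3 CPM per kb against 6.05 over all distal intervals. By cluster, 7 of 13 in HoxA, 5 of 9 in HoxB, 5 of 9 in HoxC and 10 of 11 in HoxD were strong. The highest lay 7.57 kb from the Hoxa2 start, inside Hoxa3 as annotated, with 93.7, 86.2 and 94.1 (chr6:52172405-52173133). The next, at 10.4 kb (chr6:52175191-52176163), had 84.6, 72.1 and 83.8. Both were above the Hoxa2 promoter itself in every library. Beyond the anterior end of HoxC, an interval 31.1 kb from the Hoxc4 start had 59.2, 57.1 and 63.6 (chr15:103065466-103066127), and between Hoxd3 and Hoxd1 an interval had 42.0, 41.2 and 44.1 (chr2:74749402-74750322). The Hoxc4 and Hoxd1 intervals were chosen for mention after their values were seen.

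In the Hox6 to Hox9 group 0 of 11 promoter intervals were strong. Hoxa7 had 23.5, 29.5 and 24.9 CPM per kb, Hoxd8 22.1, 25.6 and 23.7, and Hoxb7 23.7, 22.1 and 22.6, which overlapped. Hoxc6 was lowest, at 8.33, 7.82 and 7.62. Hoxa6, Hoxa9 and Hoxb8 had no promoter interval assigned. Of 13 distal intervals 5 were strong, led by one 1.17 kb from Hoxb8 with 40.0, 49.3 and 50.0 (chr11:96283073-96283341, 79 to 108 fragments). A Hoxb6 interval 1.42 kb away had 33.4, 37.6 and 32.9 (chr11:96294235-96295203). Under a promoter limit of 2 kb such intervals change class, and 3 strong ones were left in the group.

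The Hox10 to Hox13 genes of the tail end were open but weak, with 0 of 16 strong promoter intervals. Hoxd10 had 21.4, 21.2 and 20.4 CPM per kb, Hoxc13 20.9, 21.0 and 19.8 and Hoxa10 18.8, 22.8 and 19.6, and these overlapped. A second Hoxc13 interval was lowest at 4.03, 4.79 and 3.89, from 37 to 41 fragments. Hoxc13 has no listed start, so which of its intervals lies at the start is not known. All 12 genes of the group had a promoter interval. By total CPM 3 intervals of the group were strong, and from gene ends 2. The only strong distal interval of 15 lay 3.52 kb from Hoxa13, with 28.4, 21.0 and 26.0 (chr6:52257085-52257362, 40 to 58 fragments), while the next, near Hoxc12, had 17.7, 15.9 and 15.1.

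Among temporal genes, the early set held the densest single intervals. Igf2bp3, an RNA-binding protein of the fetal growth programme, had 58.0, 56.7 and 55.97 CPM per kb at its promoter (chr6:49214129-49215919), just past the strong limit and under it when scaled to its chromosome. A distal interval 2.66 kb from its start had 110, 109 and 108 (chr6:49217616-49218546), above the promoter in every library. Nr6a1, the orphan nuclear receptor that the other virus of the study carries, had 41.6, 46.4 and 44.2 at its main promoter (chr2:38925508-38927373). Its second promoter interval was the lowest of the set at 9.25, 9.64 and 8.85. Igf2bp1, a paralogue of Igf2bp3, had 41.8, 40.8 and 41.4. Near Lin28b, the RNA-binding protein that blocks let-7 processing, an interval at 15.4 kb had 54.7, 55.7 and 54.3 (chr10:45485571-45487071), against 14.5 at its promoter. In all, 1 of 12 promoter and 8 of 46 distal intervals (17.4%) were strong (15 of both classes by total CPM), with medians of 28.2 and 8.24 CPM per kb.

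Middle temporal genes had no strong promoter interval of 7, with a median of 34.6 CPM per kb, but 14 of 35 strong distal ones (40.0%; median 16.4). Of those 35, 13 lay on chromosome 8. When scaled to the chromosome by its promoter factor, which the distal median of chromosome 8 did not follow, 12 of the 35 were strong. With gene ends in place of starts, 9 intervals of the list were strong in all. The zinc finger homeobox genes Zfhx2 (42.6, 43.9 and 45.2) and, on chromosome 8, Zfhx3 (42.7, 45.6 and 40.3) led the promoters and overlapped. Pou3f2, a POU factor of neural progenitors and neurons, had 37.4, 37.4 and 36.6, and ranked above Zfhx3 when scaled to the chromosome. Near it lay intervals with 93.0, 91.6 and 91.3 at 6.55 kb (chr4:22494919-22495281) and 50.5, 49.7 and 48.9 at 8.67 kb (chr4:22497032-22498784). Both stood above the Pou3f2 promoter in every library. Zfhx4 was lowest at 6.75, 9.26 and 11.2.

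Late temporal and glial genes had weaker promoters, and several had none. Of 15 genes, 6 had no promoter interval: Aqp4, Gfap and S100b, which mark astrocytes, and Neurod6, Nfia and Zbtb20. Of the 11 promoter intervals found, 0 were strong, and their median was 21.9 CPM per kb (23.2, 21.9 and 18.3 by library). Tgfbr1, a TGF-beta receptor, had 52.0, 49.3 and 50.8, Sox8, a SoxE factor, 44.1, 43.6 and 44.5, and Sox9, the SoxE factor of gliogenesis, 35.99, 39.0 and 34.9. Those 3 did not overlap. Hopx was lowest at 3.42, 3.02 and 3.86, from 14 to 21 fragments. Of 80 distal intervals 14 were strong (17.5%), led by 45.3, 38.3 and 41.1 near Neurod2 (chr11:98294504-98295203, 34.4 kb) and 39.7, 40.6 and 39.7 near Slc1a3, a glial glutamate transporter (chr15:8629135-8630049, 80.8 kb). With a distal limit of 50 kb, 9 were strong. The genes that these intervals act on were not measured.

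Proneural and Notch ligand genes had promoters of ordinary density, median 30.8 CPM per kb against 30.9 over all, and 0 of 15 were strong. Insm1, a zinc finger factor of neurogenesis, had 40.4, 40.3 and 35.8, Neurog2, the proneural factor of motor neuron progenitors, 37.9, 37.1 and 37.7, and the Notch ligand Dll1 36.3, 37.6 and 38.5. Their libraries overlapped. Neurod4, which acts later in differentiation, was lowest at 15.9, 10.8 and 11.2. Of 60 distal intervals 17 were strong (28.3%), led by 37.3, 47.1 and 40.9 near Neurog2 (chr3:127625366-127626328, 6.81 kb) and 40.2, 41.3 and 42.6 near Neurog1 (chr13:56221093-56222715, 29.5 kb).

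Promoters of genes that mark motor neurons and interneurons were weaker. For motor neuron genes the median was 18.2 CPM per kb, with 0 of 12 strong, and 2 of 30 distal intervals (6.67%) were strong. With a promoter limit of 2 kb 1 interval of the list was strong, and by total CPM 4. Tbx20 had 39.3, 38.7 and 37.0, and Isl1 and Isl2, the LIM factors of motor neurons, 33.0, 32.5 and 31.2, and 28.9, 30.2 and 26.7. Slc5a7, the choline transporter of mature motor neurons, was lowest at 6.64, 6.66 and 5.04. Of the strong distal intervals of the list, one lay 9.66 kb from Mnx1, a homeodomain factor of motor neurons, with 22.4, 20.5 and 17.2 (chr5:29467620-29468814). For interneuron genes the promoter median was 18.5, with 0 of 29 strong and 16 of 129 distal ones (12.4%). With a distal limit of 50 kb 10 were strong, and by total CPM 28 of both classes. Gata3, a factor of V2b interneurons, had 46.9, 51.2 and 48.8, Lhx2 36.6, 39.3 and 35.1, and Pax2 36.5, 37.1 and 35.3. The Gata3 libraries did not overlap those of Lhx2 or Pax2. The densest distal intervals of the set lay 75.9 and 78.3 kb from Sox14 (chr9:99798971-99800240 with 47.4, 39.5 and 39.9, and chr9:99796802-99797892 with 36.7, 44.0 and 41.3).

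Pan-neuronal genes had the lowest promoter median of the neuronal lists, 12.7 CPM per kb (13.7, 13.4 and 12.2 by library), with 0 of 23 strong. The range was wide. Tubb3, a neuronal tubulin on chromosome 8, had 39.0, 41.8 and 40.3, Nefl, a neurofilament, 37.6, 33.9 and 36.9, and Elavl4, a neuronal RNA-binding protein, 33.2, 36.6 and 34.2. At the other end, a promoter interval of the sodium channel gene Scn2a had 1.39, 2.31 and 2.61, from 18 to 37 fragments, while the promoter interval at the other Scn2a start had 22.7, 24.1 and 22.9. Nefm, the neurofilament gene next to Nefl, had 2.44, 2.22 and 2.10. Dcx, the X-linked gene of migrating neurons, had 3.67, 4.40 and 3.10. Mapt, the tau gene, which has no listed start, had 3.33, 3.78 and 2.34 within 1 kb of a gene end. Nefm, Dcx and Mapt were chosen for mention after their values were seen. Of 50 distal intervals 8 were strong (16.0%). The highest lay at Mapt, 1.28 kb from an end of the gene, with 34.3, 34.4 and 33.0 (chr11:104230685-104233200). It thus fell just outside the promoter class, but which Mapt interval lies at the start is not known. The next lay near Gap43, a growth cone protein, with 35.1, 30.9 and 32.8 at 57.5 kb (chr16:42189928-42191094).

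Housekeeping genes gave a level to read these against. Their promoter median was 43.5 CPM per kb, with 3 of 11 strong, from Rplp0, a ribosomal protein gene, at 78.0, 73.5 and 82.2 down to Pgk1 on the X chromosome at 16.7, 18.0 and 18.5. Of their 17 distal intervals, 4 were strong (23.5%).

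Markers of other cell types lay mostly below the median of all promoter intervals, and none of their promoter intervals was strong. Of the pluripotency genes, Pou5f1, Nanog, Zfp42 (chromosome 8) and Dppa3 had no promoter interval, and the 6 intervals found lay between 3.56 (Tdgf1) and 23.8 CPM per kb (Klf4). Mesoderm and muscle genes spanned 5.15 at T to 38.1 at Tbx6 over 7 intervals, with none at Meox1, Msgn1 and Myf5. Neural crest genes reached 30.6 at Snai2 over 7 intervals. Endoderm genes spanned 4.58 at Cdx1 to 20.6 at Foxa1 over 7, with none at Gata4. Endothelial and blood genes had 4 intervals, 12.1 at Erg to 26.3 at Kdr, and none at Cdh5 (chromosome 8), Emcn, Gata1 (X) and Pecam1. Oligodendrocyte genes spanned 4.15 at Cspg4 to 27.9 at Mbp over 6, with none at Mog. Forebrain and midbrain genes spanned 8.70 at Otx2 to 42.4 at Rax over 13, with a median of 17.2. The summed promoter CPM of the pluripotency list was 144 to 154 a library, over 6 intervals, against 1734 to 1802 over 20 for the neural progenitor list. The median promoter interval held 17.3 CPM in the first and 85.1 in the second. Distal intervals of these other lists were strong in 1 of 14 cases for pluripotency (7.14%) and 1 of 26 for mesoderm and muscle (3.85%). They were strong in 5 of 31 for neural crest (16.1%) and 5 of 21 for endoderm (23.8%). The counts were 2 of 20 for endothelium and blood (10.0%), 4 of 21 for oligodendrocytes (19.0%) and 5 of 38 for forebrain and midbrain (13.2%). Over distal intervals at any distance the share was 10.0%. The endoderm share was near that of the ventral patterning list (24.3%), so a share above 10.0% was not confined to neural lists. Accessibility does not measure expression, and other cells at a low share were not tested for.

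Promoter density went with the CpG content of the start. Of 21254 RefSeq starts, 12965 (61.0%) lay in an interval. The share was 5.79% of 4698 starts with a CpG ratio (observed over expected) under 0.2, 72.0% of 2754 between 0.4 and 0.6, and 98.6% of 1716 above 1.0. Where a start lay in an interval, the median density rose from 8.03 CPM per kb in the lowest class to 40.0 in the highest. Spearman's rho of the ratio with density was 0.40 over 12965 starts, as a description, since these share libraries and base composition. Single genes left this order. The Hoxa2 start has a ratio of 0.59 and lay in an interval of 52.8 CPM per kb, while Hoxa13, with a ratio of 0.92, had 17.2 and Nkx6-1, with 1.18, had 29.1. The Scn2a start shown and the Dcx start, with 0.37 and 0.20, were among the weakest of their list. The other Scn2a start (chr2:65668436-65668735), with a ratio of 0.53, lay in an interval of 23.2 CPM per kb.

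**Figure D5:**
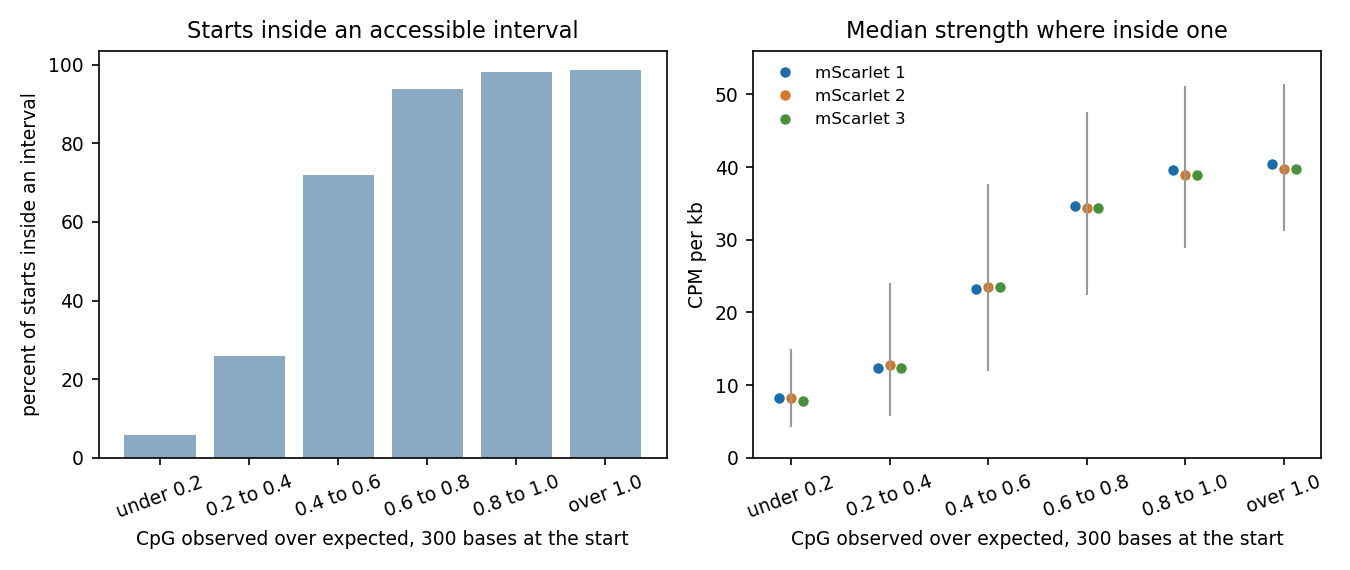
Starts by CpG observed over expected in 300 bases. Left: percent of starts inside an accessible interval. Right: median CPM per kb of starts inside an interval, one point per mScarlet library, with the quartiles of the mean as a line. The share rises from 5.79% to 98.6% and the median from 8.03 to 40.0.

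Short motifs in the same 300 bases, searched on both strands, differed between starts inside and outside intervals. GGGCGG, the GC box, which contains a CpG, was in 68.4% of starts inside, in 11.6% of the 8289 starts outside, in 78.7% of the 1592 starts in strong intervals and in 46.2% of all. CCAAT was in 37.7% inside and 39.0% outside, and in 54.5% of starts in strong intervals. TATAAA was in 6.05% inside and 22.8% outside, and in 3.52% of starts in strong intervals. TAATTA, a homeodomain core, was in 2.19% inside and 8.19% outside. Both TATAAA and TAATTA hold only A and T, and the median GC content was 62.3% inside and 47.0% outside. No share was corrected for base composition. CACGTG, the E-box with a central CpG, was in 10.2% inside and 4.22% outside. Of the starts shown above, GGGCGG was found in Nes, Sox2, Olig2, Hoxa13 and Tubb3, and TATAAA in Olig2 and Dcx. A match describes letters in this window and no binding.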

How the data were processed

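ATAC-seq counts of the 3 mScarlet libraries were used, and those of the 3 Nr6a1OE libraries were not. The authors deposited raw fragment counts for 52223 consensus intervals. Per the file headers, read pairs were counted with featureCounts 2.0.1, a fragment counted for each interval it overlapped by at least 0.2 of its length, so neighbouring intervals share fragments. The submitters' processing notes name mm10. For the aligner, the peak caller, duplicates and any Tn5 shift, the sources used here give nothing. Interval length in bp, listed beside the counts, was also taken from the deposited table.

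Counts were divided by the total over intervals, 6857763 to 8030029 fragments a library, and by length, and averaged with equal weight. This was done with Python 3.11.15, pandas 2.3.3 and numpy 2.4.6, and edgeR 4.0.16 and DESeq2 1.42.0 in R 4.3.3 gave scaling factors for the alternatives. The scripts were tested on simulated data. No filter on low counts was applied. A single group was described, so no test between groups was made, and SDs measure the spread between libraries. A sign-flip test over 3 libraries could not go below p = 0.25 (exact, two-sided).

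RefSeq tables of GRCm38.p6 listed a start for 17491 of 21883 protein-coding genes (79.9%), for 189 of 264 list genes and for 22 of 39 Hox genes. For the rest both gene ends were used, and 1 of them is not a start. Members of the 24 lists were intervals whose nearest gene was in the list and within 100 kb for distal ones. The lists and comparisons were chosen with earlier results of these data known. The rule for named intervals took the 3 highest and the lowest promoter interval and the 2 highest distal ones of each of 14 lists. It also took the 5 highest of each class, and the highest and lowest promoter interval of each other list. A few of the items this rule takes are not reported here. Alternatives changed the scaling, a filter of 10 fragments, the promoter limit, the distal limit, division by length, the use of gene ends, the set of genes, the chromosome level and the libraries averaged.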

Additional observations from a re-analysis of the deposited data

How the results depend on the processing

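The medians and shares of the promoter and distal classes, the Hox difference and the counts of strong intervals stayed within the spread between libraries, or within 1.5 times for counts, under edgeR's TMM factors, under DESeq2 size factors and without each mScarlet library in turn. Counts of strong intervals were also within 1.5 times when each value was scaled to its chromosome by the factor from promoters. That alternative was chosen after seeing the data, as was the use of only genes with a listed start. No value changed direction. The promoter share of intervals, 26.6%, was 25.8% with a promoter limit of 500 bp, 28.1% with 2 kb and 21.7% with only listed starts. The promoter share of fragments, 64.1%, was 63.3%, 65.4%, 60.9% from gene ends and 54.1% with only listed starts. The promoter median of 30.9 CPM per kb was 31.4 with 500 bp, 29.85 with 2 kb, 29.0 from gene ends and 33.2 with only listed starts, and 42.2 CPM without division by length. The distal median of 6.05 was 6.14 with at least 10 fragments, 6.15 from gene ends and 6.48 with only listed starts, and 5.02 CPM without division by length. The Hox1 to Hox5 promoter median minus that of Hox10 to Hox13, 15.9, was 10.1 with 500 bp, 11.1 with only listed starts and 29.8 CPM without division by length. Strong intervals of Hox10 to Hox13 went from 1 to 3 without division by length and 2 from gene ends, of Hox6 to Hox9 from 5 to 3 with 2 kb, of early temporal genes from 9 to 15 without division by length, and of middle temporal genes from 14 to 9 from gene ends. With a distal limit of 50 kb, those of intermediate patterning went from 17 to 11, of late temporal genes from 14 to 9 and of interneuron genes from 16 to 10; without division by length interneuron genes had 28. Motor neuron genes had 2, 1 with 2 kb and 4 without division by length. The cause was not tested where the alternative does not itself change the intervals counted. Of 1113 further values under these alternatives (medians of lists and single named intervals), 852 moved by less than the spread between libraries and 261 by more. Of the 261, 132 were without division by length and 66 when scaled to the chromosome. Without division by length the unit changes from CPM per kb to CPM, so those 132 do not measure stability. Weak intervals are limited by depth: the median distal interval held 37.3 fragments. No paired analysis was possible because a single group was described.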
